A study of Mus musculus with 6 samples.

Results

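Proteins that enter the secretory pathway are recognised, threaded into the endoplasmic reticulum (ER), trimmed and glycosylated by a fixed set of machines, and 50 genes encoding these machines are described here. They were taken by symbol from the deposited count table, which has 36333 gene rows, and all 50 had a row. The tissue was pancreas of wild-type mice, from which RNA was sequenced in 3 samples given saline and 3 given cerulein into the peritoneum. Cerulein, an analogue of the hormone cholecystokinin that overstimulates the enzyme-secreting acinar cells, was injected 10 times in 200 µl at 200 µg/kg/h. Pancreas was collected as soon as the injections ended, to capture early acute pancreatitis. The number, volume and schedule of the saline injections, and the strain, sex and age of the mice, were not stated in the labels. Nothing in the labels says that the 3 samples of a group are separate mice, so p-values measure only the spread between these samples, which may be technical.

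The signal recognition particle (SRP) binds the signal sequence of a nascent protein on the ribosome and docks at its receptor on the ER. The chain then passes through the Sec61 channel, signal peptidase removes the signal sequence, and the oligosaccharyltransferase transfers a preassembled glycan from the lipid dolichol onto asparagine residues. Glucosidases and a folding sensor then read that glycan before the protein moves to the Golgi. Acinar cells of the pancreas are known for an exceptionally large rough ER, which serves the synthesis of digestive enzymes.

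Libraries held 5335117 to 7610775 counts. Digestive enzyme genes (19 genes with counts, from a list of 22 in which Klk1 and the trypsinogen genes Prss1 and Prss2 were at 0 in all libraries and treated as not measured) made up 54.8% ± 7.89 of the saline counts and 30.9% ± 2.01 of the cerulein counts (SD, n = 3 each), and saline replicate 1 stood apart from its group at 45.7%. Levels are therefore given as CPM, the count relative to 1e+06 counts of the TMM-scaled library. TMM sets the bulk of genes to no change, and "rose" and "fell" are relative to that bulk. Acinar markers of a fixed list fell for 7 of 8 genes, and the acinar fate factor gene Ptf1a rose by 1.38 ± 0.24 on the log2 scale. The 8 markers summed to 173477 to 352270 CPM in saline and 84763 to 98997 CPM in cerulein. The markers Cpa1, Cela2a and Pnlip are also in the digestive enzyme list and hold most of these sums. The sums therefore largely repeat the enzyme values. Duct markers rose for 6 of 8 and fell for 2, with sums of 436 to 536 CPM in saline and 1058 to 1303 CPM in cerulein. Monocyte and macrophage markers rose for 4 of 8, with sums of 151 to 339 CPM and 499 to 558 CPM. Neutrophil markers were called for 0 of the 5 tested and summed to 200.9 CPM in saline replicate 1 against 16.4 CPM in the lowest saline library. In cerulein they summed to 42.8 to 108 CPM. Lymphocyte markers were called for 0 of 5 tested, with sums of 5.62 to 41.6 CPM in saline and 25.2 to 54.4 CPM in cerulein, and Ms4a1 was at 0. Plasma cell markers summed to 19.8 to 59.7 CPM and 148 to 168 CPM. Of these, Igkc was at 0 in all libraries, Jchain was not called, and the gene that rose was Sdc1, which epithelial cells also express. The part of these other cells in the results below was not tested. In bulk tissue, fewer cells of a type and less RNA per cell cannot be told apart.

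Most of the ER entry and glycosylation genes were lower after cerulein. Of 48 members tested, 28 fell, 2 rose and 18 did not pass the threshold, an adjusted p under 0.05 in edgeR over all genes tested. Among all 12441 genes tested, 27.1% were called lower and 28.7% higher. The median log2 fold change was -0.64 over the 48 members and 0.00 over all genes tested. The largest falls were in Sec11c, a catalytic subunit of signal peptidase, and in Magt1, Ssr1, Dad1, Ostc and Rpn2, which belong to the glycosylation and translocon complexes. The genes that rose were Prkcsh, a glucosidase II subunit, and Mgat1, a Golgi glycosyltransferase. The groups did not overlap for 27 members in the lower direction and 2 in the higher, against 30.6% and 32.4% of all genes tested.

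The sizes within a complex differed widely, as the plot of changes by role shows. All 48 tested members had at least 12 counts in every library, so none entered the test through its higher group alone. The other 2 members gave no test. Dpm1, which makes the mannose donor of the ER lumen, was at 0 in all 6 libraries. Its RefSeq span, chromosome 2, 168209048 to 168230379 (GRCm38.p6, the assembly of mm10), lies wholly inside that of the lncRNA gene Gm20716, 168180965 to 168230379. In GENCODE M21, which lists Gm20716 as protein-coding, the overlap is partial, with 12% of the exonic bases of Dpm1 shared. Gm20716 has a row under its older symbol Dpm1-adnp, with 0 to 2 counts per library, and Adnp, the neighbour it also spans, was at 0 too. The annotation used for counting is not known, and the 0 of Dpm1 was treated as no measurement. Sec61g, the small gamma subunit of the channel, had 3 to 22 counts per library and did not pass the filter on low counts.

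**Figure D1:**
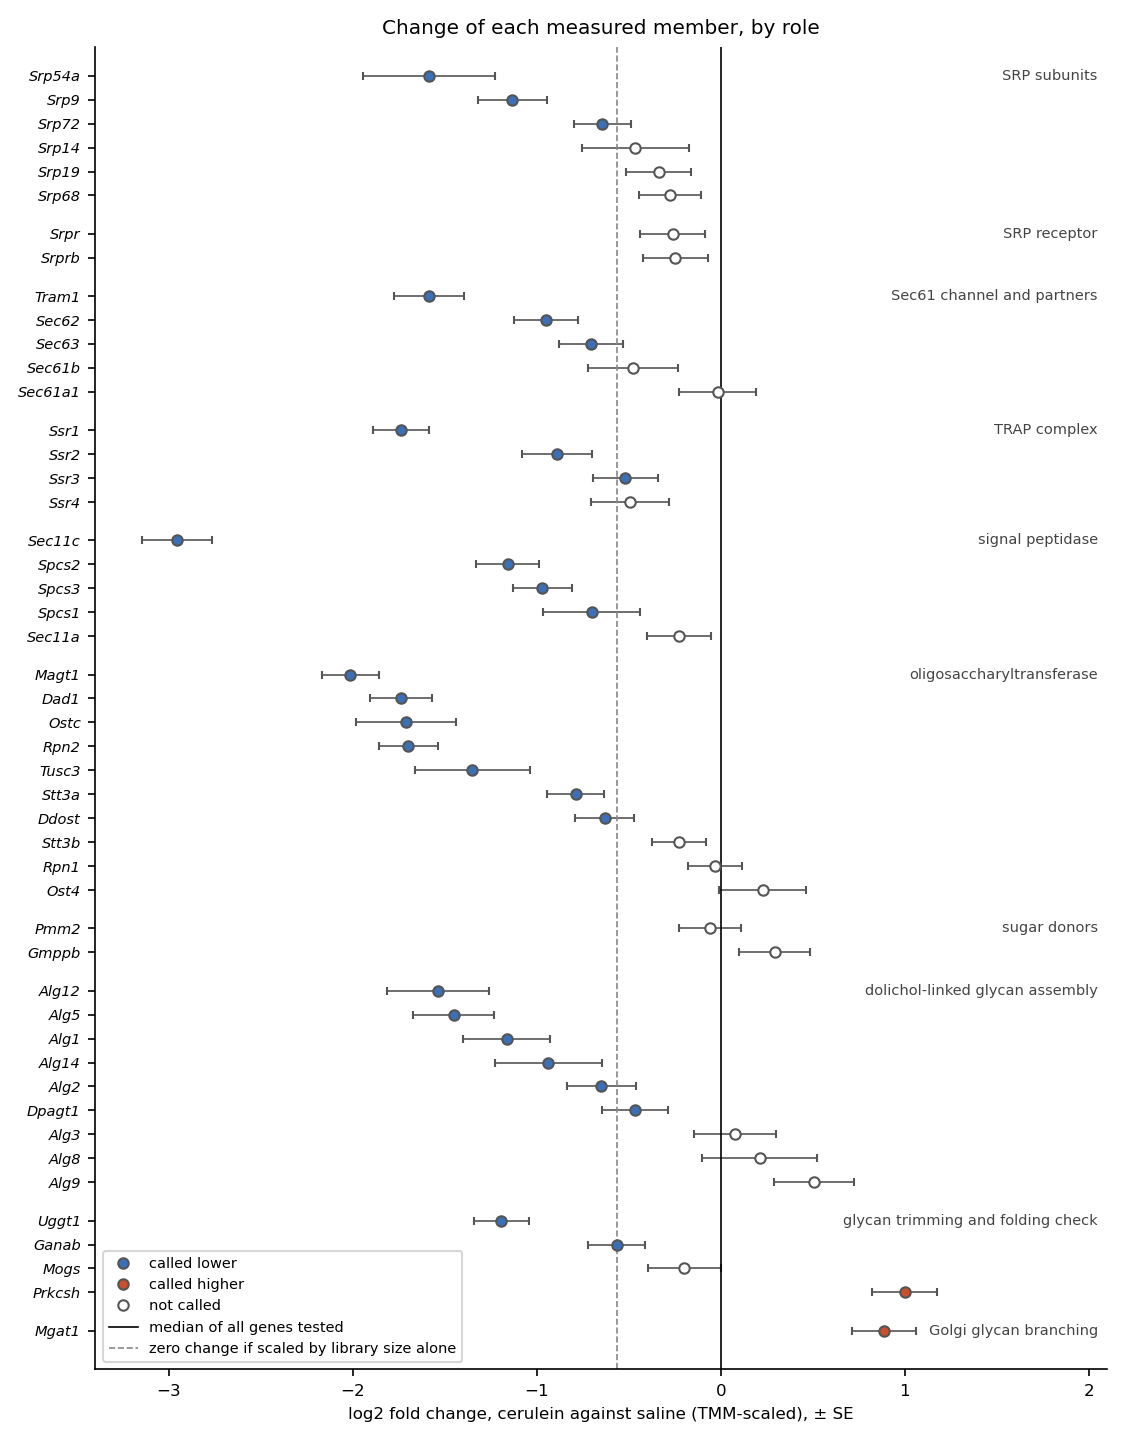
Log2 fold change (cerulein against saline, TMM-scaled) with its standard error for the 48 tested members, grouped by role; filled blue points were called lower, filled red higher and open points were not called. The solid line is the median of all genes tested, at 0.00, and the dashed line is where a gene would sit if library size alone left it unchanged; Sec11c lies farthest left at -2.96 ± 0.19 and Prkcsh farthest right at 1.0 ± 0.18.

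Scaling decided how many members moved. With library size alone, 12 members were called lower (11.7% of all genes) and 9 higher (41.7%), and the median over members was -0.05 while that over all genes was 0.56. With upper-quartile factors, 35 were lower and 2 higher (33.7% and 23.3% of all genes), with medians of -0.84 and -0.20. The distance between the member median and the median of all genes was -0.64 with TMM, -0.64 with upper-quartile factors and -0.61 with library size alone. Members called lower numbered 27 to 29 and higher 2 to 3 with RLE factors (27.3% and 28.6% of all genes), DESeq2 (24.8% and 26.3%), limma-voom (27.5% and 29%) and a library size that leaves out the digestive enzyme genes (27.9% and 27.2%). Leaving out saline replicate 1, 2 or 3 gave 34, 26 and 23 members lower (28.1%, 25.7% and 23.6% of all genes) and 2, 3 and 2 higher (29.2%, 27.5% and 24.2%). Leaving out cerulein replicate 1, 2 or 3 gave 24, 27 and 25 lower (24.3%, 23.3% and 22.8% of all genes) and 2 higher each (26.3%, 24.7% and 24.6%). The 12 genes called lower also with library size alone were Sec11c, Magt1, Ssr1, Dad1, Rpn2, Ostc, Tram1, Alg12, Alg5, Uggt1, Spcs2 and Srp9, with log2 values there from -2.36 to -0.53. The 9 called higher there were Prkcsh, Mgat1, Alg9, Gmppb, Ost4, Alg3, Sec61a1, Rpn1 and Pmm2.

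**Figure D2:**
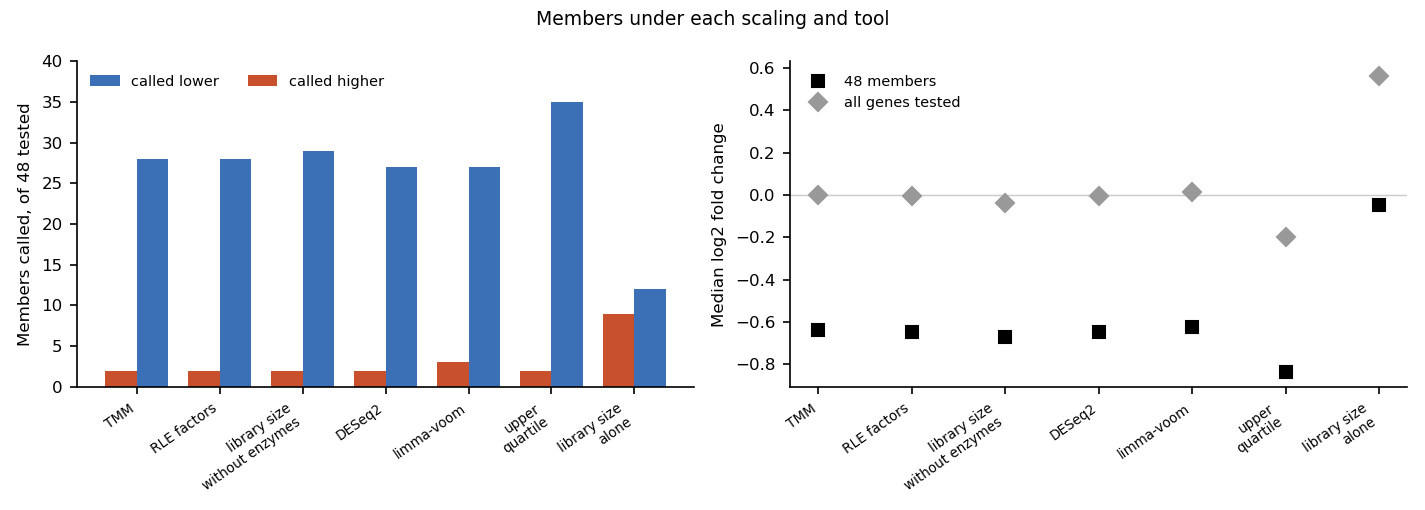
Left, the number of the 48 tested members called lower (blue) and higher (red) under each scaling or tool; right, the median log2 fold change of the members (squares) and of all genes tested (diamonds). Counts run from 12 to 35 lower and 2 to 9 higher, while the member median stays below that of all genes in every setting shown.

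As a share of all counts the members held nearly the same place in both groups, at 0.321% ± 0.0171 of the saline counts and 0.307% ± 0.0184 of the cerulein counts (SD, n = 3 each), and the groups overlapped. Set against the transcripts of their main cargo, they stood higher after cerulein. There were 0.746, 0.523 and 0.528 member counts per 100 digestive enzyme counts in saline replicates 1, 2 and 3, and 0.974, 0.894 and 1.12 in the cerulein replicates. The groups did not overlap, and the cerulein mean was 1.66 times the saline mean. This ratio needs no scaling, and since it is a sum over chosen members it carries no test. The enzyme share of all counts was 54.8% in saline and 30.9% in cerulein. The ratio therefore rises for any genes whose share of counts holds steady, and its rise is not particular to the members. The digestive enzyme list itself fell for 18 of 19 tested genes, among them the amylase gene Amy2a5, at -7.05 ± 0.30, and the chymotrypsin C gene Ctrc, at -4.53 ± 0.26 on the log2 scale. Reads of the near-identical amylase copies may be split uncertainly, and without those genes the ratio of means was 1.66.

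**Figure D3:**
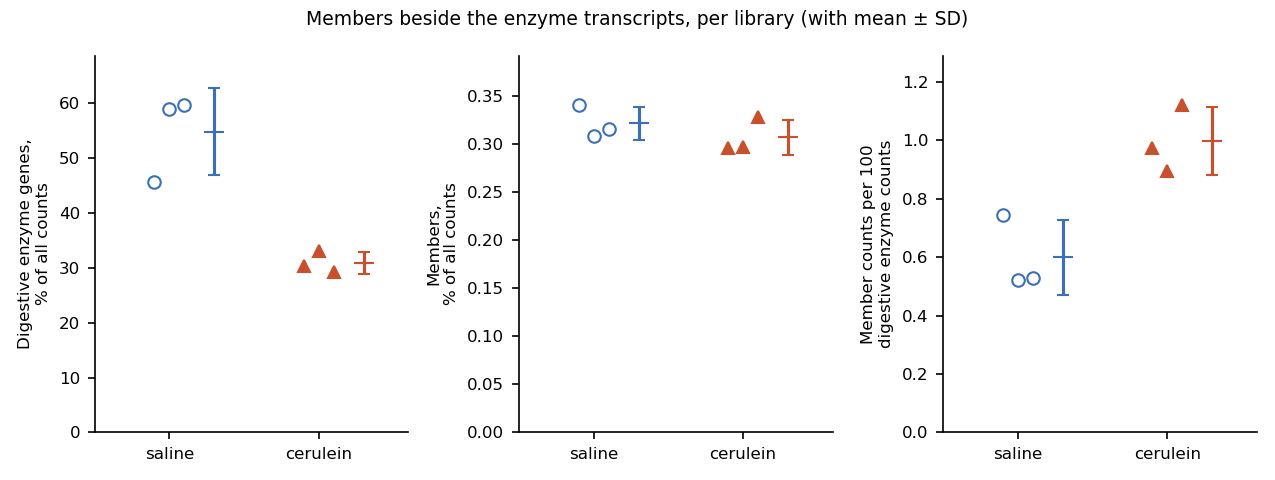
Digestive enzyme genes as a percentage of all counts, the 50 members as a percentage of all counts, and member counts per 100 digestive enzyme counts, for each of the 3 saline (circles) and 3 cerulein (triangles) libraries, with mean ± SD beside the points. The enzyme share is 54.8% in saline and 30.9% in cerulein, the member shares of 0.321% and 0.307% overlap, and the right panel separates the groups.

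Of the genes for 6 SRP proteins, 3 fell and 3 were not called, and both receptor genes were not called. In what follows, values are TMM-scaled CPM in replicates 1, 2 and 3 of each group, and log2 fold changes carry their standard error. Srp9, which with Srp14 slows translation while the ribosome docks, was at 47.1, 73.7 and 68.2 CPM in saline and 25, 31.7 and 29.0 CPM in cerulein, and fell by 1.13 ± 0.19 on the log2 scale (edgeR, adjusted p = 1.92e-04). Every cerulein library lay below every saline library. Its partner Srp14 was at 9.73, 10.1 and 18.2 CPM in saline and 6.26, 10.6 and 10.2 CPM in cerulein, with overlapping groups and a log2 fold change of -0.47 ± 0.29. Srp72, which with Srp68 forms a scaffold on the SRP RNA, was at 95, 116 and 100.3 CPM in saline and 57.4, 69.7 and 72.0 CPM in cerulein (log2 fold change -0.64 ± 0.16), without overlap. Srp68, the other scaffold protein, was at 70.6, 99.96 and 98.2 CPM in saline and 65.7, 80.5 and 75.1 CPM in cerulein, a log2 fold change of -0.28 ± 0.17 that was not called. Srp54a encodes the GTPase that binds signal sequences and was at 6.35, 10.3 and 7.95 CPM in saline and 3.31, 1.40 and 3.4 CPM in cerulein. It fell by 1.59 ± 0.36 on the log2 scale, but Srp54b and Srp54c are at least 95% identical over at least 50% of its transcript, so its reads are uncertain, and the counts of the 3 copies summed gave -0.98. Srp19, which binds the SRP RNA during assembly, was at 25.3, 35 and 28.7 CPM in saline and 21.8, 26.5 and 21.8 CPM in cerulein (log2 fold change -0.34 ± 0.18, not called).

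The receptor's docking subunit Srpr was at 281, 369.7 and 354 CPM in saline and 250.01, 293 and 294 CPM in cerulein. Its membrane anchor Srprb was at 41.9, 62.7 and 55.9 CPM in saline and 39.7, 44.5 and 50.5 CPM in cerulein. The log2 fold changes were -0.26 ± 0.18 and -0.25 ± 0.18, with overlapping groups in both genes. Leaving out saline replicate 1, the lowest saline library for the receptor genes, Srp68 and Srp19, brought all 4 under the threshold, at -0.41 for Srpr, -0.44 for Srprb, -0.46 for Srp68 and -0.49 for Srp19. These 4 genes also passed with upper-quartile factors.

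The Sec61 channel and its partners split in the same way. Sec61a1, the pore-forming subunit, was at 211, 349 and 293 CPM in saline and 239, 324 and 279.9 CPM in cerulein. The cerulein libraries lay within the saline range, and the log2 fold change was -0.02 ± 0.21, which became 0.59 and was called higher with library size alone. Tram1, a membrane protein that helps nascent chains leave the channel, was at 266, 333 and 380.1 CPM in saline and 92.8, 116 and 117 CPM in cerulein, 3.004-fold lower (edgeR, adjusted p = 1.28e-05). Within each library the ratio of Sec61a1 to Tram1 counts was 0.794, 1.05 and 0.772 in saline and 2.58, 2.79 and 2.40 in cerulein, a pair chosen after the values were seen. Sec62 and Sec63, which serve proteins that enter after translation, fell by 0.95 ± 0.17 and 0.71 ± 0.17. Sec62 was at 169.7, 235 and 234 CPM in saline and 104, 114 and 113 CPM in cerulein. For Sec63 the levels were 85.8, 109 and 107 CPM in saline and 48.6, 71.0 and 65.1 CPM in cerulein, and the groups overlapped for neither gene. Sec61b, a small channel subunit, was at 12.2, 11.5 and 14.1 CPM in saline and 6.61, 11.8 and 8.56 CPM in cerulein (log2 fold change -0.48 ± 0.24, not called, but called without cerulein replicate 2, at -0.71, and with upper-quartile factors, at -0.68). Gm10320 and Gm5870 are near-identical to it by the same measure, so its reads are uncertain too.

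The translocon-associated protein (TRAP) complex sits beside Sec61 and aids the insertion of some signal sequences. Its 4 genes had log2 fold changes from -1.74 to -0.49. Ssr1, the alpha subunit, was at 162, 166 and 189 CPM in saline and 51.0, 55.3 and 48.5 CPM in cerulein, 3.34-fold lower (log2 fold change -1.74 ± 0.15, edgeR, adjusted p = 9.57e-07). Ssr2, the beta subunit, was at 49.98, 86.0 and 76.4 CPM in saline and 37.2, 39.1 and 37.7 CPM in cerulein (log2 fold change -0.89 ± 0.19). Saline replicate 1 was the lowest saline library for Ssr2, and no cerulein library reached it. Ssr3, the gamma subunit, was at 271, 292 and 329 CPM in saline and 183, 199 and 241 CPM in cerulein, a fall of 0.52 ± 0.18. Leaving out saline replicate 3 or either of cerulein replicates 1 and 2 ended its call, at -0.46, -0.42 and -0.48, as did no count filter, at -0.44, and its value was 0.07 with library size alone. Ssr4, the delta subunit, was at 59.2, 97.5 and 108 CPM in saline and 55.0, 72.0 and 60.3 CPM in cerulein (log2 fold change -0.49 ± 0.21, not called), but was called lower without saline replicate 1, at -0.75, and also with upper-quartile factors (-0.69), with a library size that leaves out the enzyme genes (-0.53) and with no count filter (-0.42).

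Signal peptidase held the steepest fall of all members. Sec11c and Sec11a encode alternative catalytic subunits of the enzyme. Sec11c was at 93.5, 124 and 146 CPM in saline and 14.8, 17.2 and 14.7 CPM in cerulein, 7.77-fold lower (log2 fold change -2.96 ± 0.19, edgeR, adjusted p = 6.63e-08). The highest cerulein library stood far below the lowest saline library. Sec11a was at 20.3, 23.4 and 18.0 CPM in saline and 17.1, 18.9 and 16.6 CPM in cerulein, with overlapping groups and a log2 fold change of -0.23 ± 0.17 that was not called. Counts of Sec11c were 4.61, 5.31 and 8.16 times those of Sec11a in the saline libraries and 0.862, 0.907 and 0.886 times in the cerulein libraries. The mean log2 ratio changed from 2.54 ± 0.43 to -0.18 ± 0.04 (SD, n = 3 each; two-sided exact permutation of the 6 libraries, p = 0.1, the lowest that 3 against 3 can give, and 0.1 adjusted over 3 pairs). Per kilobase of the principal transcript, Sec11c had the highest level of all members in saline, at 141 CPM per kb against 15.3 for Sec11a, and 18.1 against 13.0 in cerulein.

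The accessory subunits fell less. Spcs2 was at 71.9, 92.8 and 95.1 CPM in saline and 31.8, 43.3 and 40.9 CPM in cerulein. Spcs3, which the enzyme needs for activity, was at 170.5, 209.8 and 216 CPM in saline and 97.3, 105 and 102 CPM in cerulein. Falls of 1.16 ± 0.17 and 0.97 ± 0.16 on the log2 scale came without overlap between groups. Spcs1 was at 29.7, 56.6 and 61.8 CPM in saline and 25.9, 37.2 and 27.1 CPM in cerulein, and the groups overlapped because saline replicate 1 lay below cerulein replicate 2. Its call (log2 fold change -0.70 ± 0.26, edgeR, adjusted p = 0.0430) was lost without saline replicate 2 or 3 or cerulein replicate 1 or 3, at -0.58, -0.53, -0.59 and -0.62, and with limma-voom, at -0.64. Of its exonic bases, 16.3% are shared with Glt8d1 on the other strand.

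**Figure D4:**
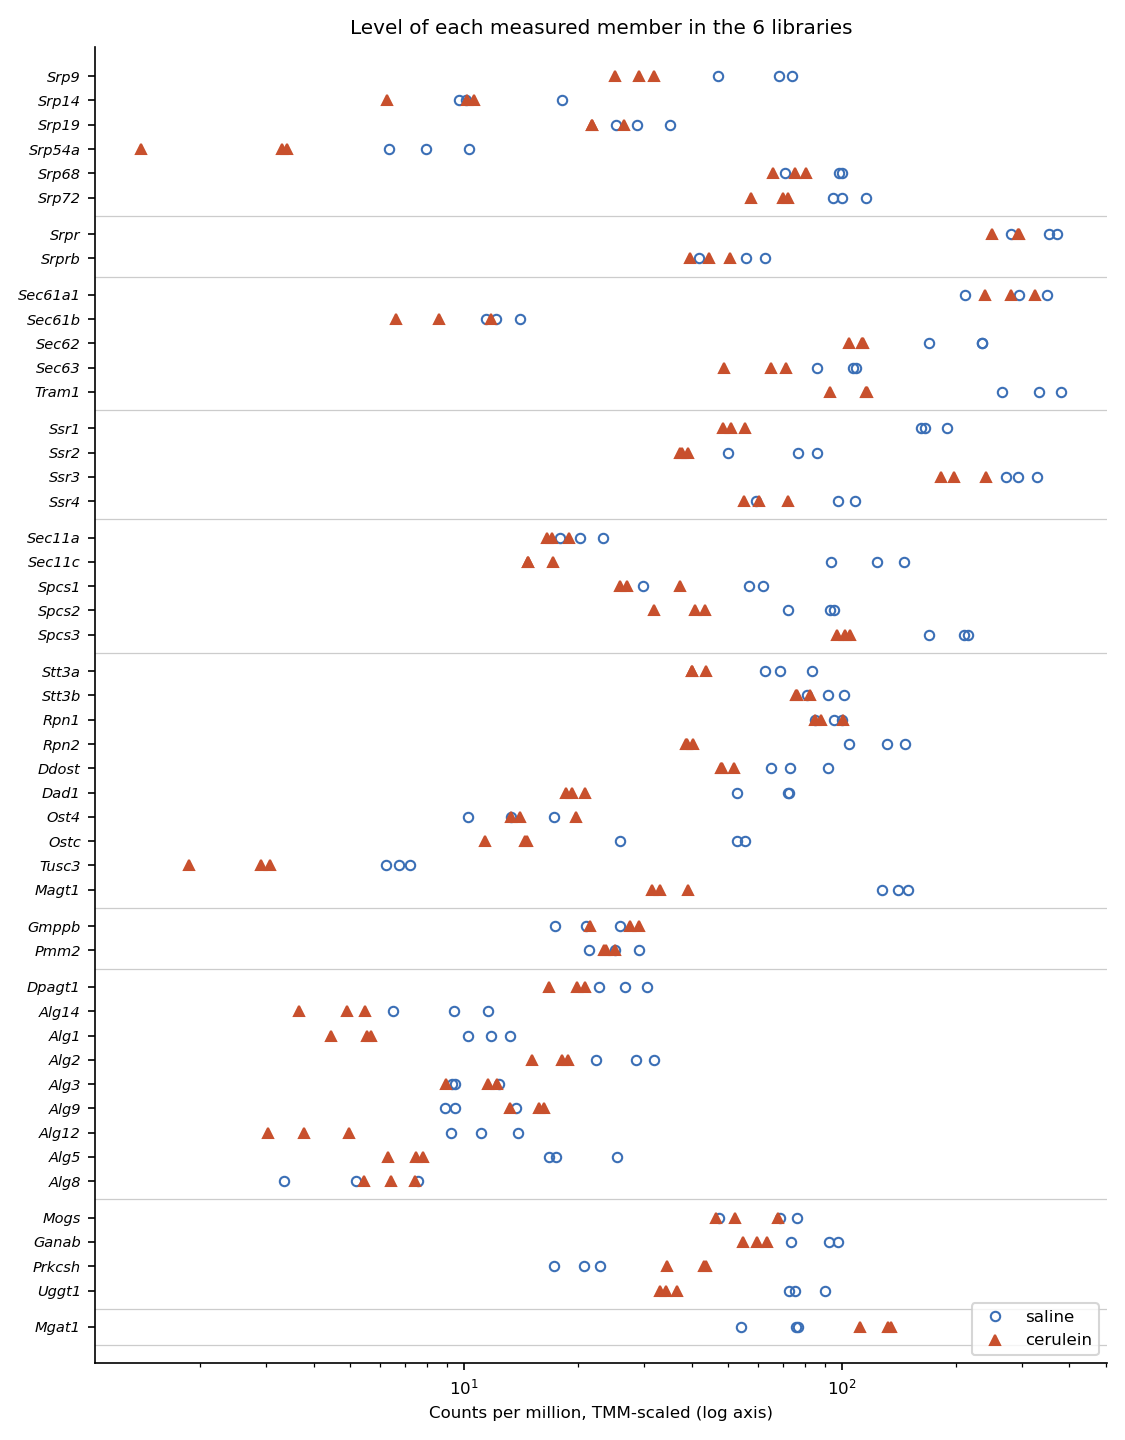
TMM-scaled CPM (log axis) of the 48 tested members in each saline (open circles) and cerulein (triangles) library, grouped by role as in the plot of changes. Sec11c runs from 93.5 to 146 in saline and 14.7 to 17.2 in cerulein, while the groups overlap for Sec61a1 and Rpn1.

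The oligosaccharyltransferase exists in forms built on either of the catalytic subunits Stt3a and Stt3b. Stt3a works on chains as they leave the channel, and Stt3b, with the oxidoreductase Magt1 or Tusc3, reaches sites that were passed over. Of the 10 genes, 7 fell and 3 were not called, and their median log2 fold change was -1.07. Stt3a was at 62.4, 83.3 and 68.5 CPM in saline and 40.02, 40.1 and 43.6 CPM in cerulein and fell by 0.79 ± 0.15 on the log2 scale (edgeR, adjusted p = 6.98e-04). Stt3b was at 80.6, 101 and 91.8 CPM in saline and 76.1, 82.2 and 75.4 CPM in cerulein, with overlapping groups and a log2 fold change of -0.23 ± 0.15 that was not called, but was -0.42 and called with upper-quartile factors. The count ratio of Stt3a to Stt3b was 0.774, 0.823 and 0.746 in saline and 0.526, 0.489 and 0.578 in cerulein. The mean log2 ratio moved by -0.56 (two-sided exact permutation, p = 0.1, the lowest the design allows, and 0.1 adjusted over 3 pairs).

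Both oxidoreductases fell. Magt1, at chromosome X, 105968084 to 106011906, was at 128, 149.6 and 141 CPM in saline and 31.4, 33.0 and 39.0 CPM in cerulein, 4.04-fold lower (log2 fold change -2.01 ± 0.16, edgeR, adjusted p = 3.24e-07). Tusc3 was at 6.21, 6.74 and 7.18 CPM in saline and 3.07, 1.87 and 2.90 CPM in cerulein, a fall of 1.35 ± 0.31. Tusc3 had 0.0486, 0.0450 and 0.0510 counts per Magt1 count in saline and 0.0977, 0.0565 and 0.0742 in cerulein, so Magt1 had the higher count in every library. That log2 ratio rose by 0.64 (two-sided exact permutation, p = 0.1, the lowest the design allows, and 0.1 adjusted over 3 pairs), and by 0.44 without cerulein replicate 1.

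The remaining subunits are shared by both forms, except Ostc, which belongs to the Stt3a form. Dad1 was at 52.7, 72.1 and 72.6 CPM in saline and 19.4, 18.7 and 20.9 CPM in cerulein. Ostc was at 25.9, 55.5 and 52.8 CPM in saline and 11.3, 14.7 and 14.5 CPM in cerulein. These were 3.33-fold and 3.28-fold lower (edgeR, adjusted p = 2.31e-06 and 2.71e-04), without overlap. Of the ribophorins, Rpn2 fell and Rpn1 was not called. Rpn1 was at 85.1, 95 and 99.8 CPM in saline and 84.6, 88.2 and 101 CPM in cerulein, with overlapping groups and a log2 fold change of -0.03 ± 0.15. Rpn2 was at 105, 132 and 147 CPM in saline and 38.8, 40.3 and 38.8 CPM in cerulein, without overlap, and its log2 fold change was -1.70 ± 0.16. The ratio of Rpn1 to Rpn2 counts, a pair chosen after the values were seen, was 0.814, 0.722 and 0.678 in saline and 2.18, 2.19 and 2.59 in cerulein. Ddost, a subunit that stabilises the complex, was at 76.6 ± 14.0 CPM in saline and 49.3 ± 2.18 in cerulein (SD, n = 3 each), a fall of 0.63 ± 0.16. Ost4, a very small subunit, was at 10.3, 17.3 and 13.3 CPM in saline and 13.3, 19.8 and 14.1 CPM in cerulein (log2 fold change 0.23 ± 0.24, not called), but 53.2% of its exonic bases are shared with Agbl5 on the other strand and reads there may be lost. With library size alone Rpn1 and Ost4 were called higher, at 0.55 and 0.81.

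**Figure D5:**
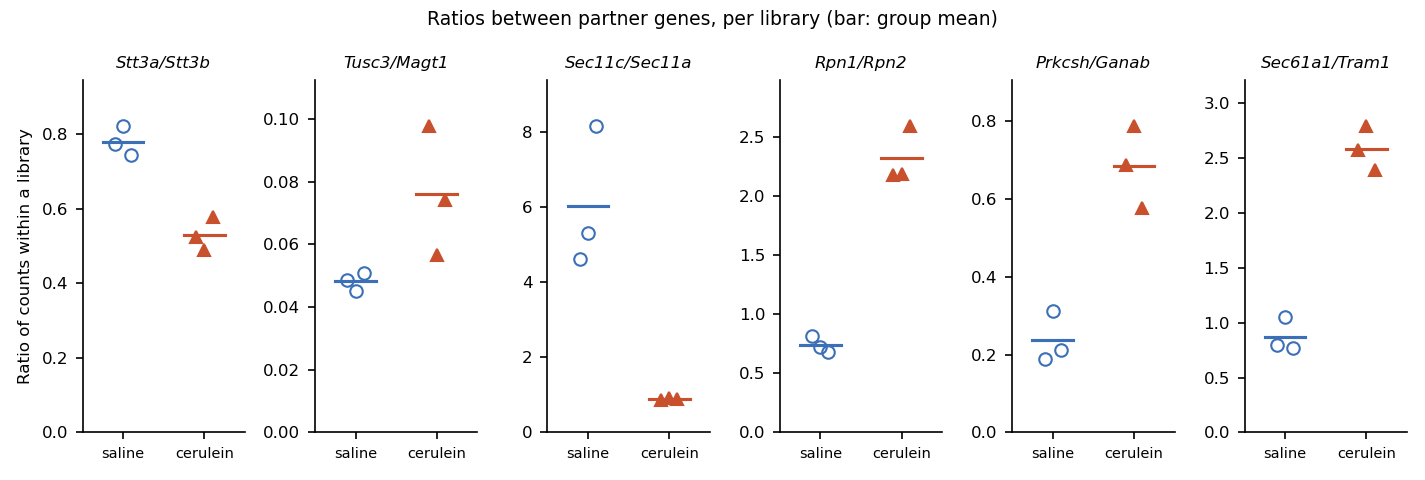
Ratio of counts within each library for 6 pairs of partner genes, 3 saline (circles) and 3 cerulein (triangles) libraries per panel, with bars at the group means; each panel has its own axis from 0. The groups do not overlap in any panel, and Sec11c/Sec11a goes from 4.61 to 8.16 in saline to 0.862 to 0.907 in cerulein; the Rpn1/Rpn2, Prkcsh/Ganab and Sec61a1/Tram1 pairs were chosen after their values were seen.

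The glycan that the transferase uses is built stepwise on dolichol by the ALG enzymes. Of 9 genes for these steps, 6 fell, none rose and 3 were not called. With library size alone, Alg12 and Alg5 were called lower, and Alg9 and Alg3 were called higher, at 1.09 and 0.65. Dpagt1, which starts the chain, was at 26.7 ± 3.86 CPM in saline and 19.2 ± 2.17 in cerulein (SD, n = 3 each), and its log2 fold change was -0.47 ± 0.18 (edgeR, adjusted p = 0.0394). Its call was lost when any library except saline replicate 1 was left out, with values from -0.52 to -0.35, and with DESeq2 or no count filter. Alg14, a subunit of the enzyme that adds the next sugar, had a log2 fold change of -0.94 ± 0.29. It was not called once saline replicate 3 or cerulein replicate 1 was left out, at -0.76 and -0.77. Alg1 and Alg2 add the first mannoses on the cytosolic face. Alg1 was at 10.3, 13.3 and 11.8 CPM in saline and 5.55, 4.43 and 5.67 CPM in cerulein and fell by 1.16 ± 0.24 on the log2 scale. Eef2kmt on the other strand shares 17.6% of its exonic bases. Alg2 had a log2 fold change of -0.65 ± 0.19, and -0.55 without saline replicate 3 or without cerulein replicate 3, where it was not called.

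On the lumenal face, mannoses are added by Alg3, Alg9 and Alg12 and glucoses by Alg6, Alg8 and further enzymes. Alg12 was at 11.1, 13.9 and 9.23 CPM in saline and 4.96, 3.03 and 3.78 CPM in cerulein, 2.90-fold lower (log2 fold change -1.54 ± 0.28, edgeR, adjusted p = 3.85e-04), without overlap. Alg5, which makes the glucose donor, was at 16.8, 17.5 and 25.4 CPM in saline and 7.79, 7.47 and 6.30 CPM in cerulein, a fall of 1.45 ± 0.22. Alg3, Alg9 and Alg8 were not called. Alg3 was at 9.32, 12.4 and 9.49 CPM in saline and 8.97, 11.6 and 12.2 CPM in cerulein (log2 fold change 0.08 ± 0.22). Alg8 was at 7.56, 5.17 and 3.33 CPM in saline and 5.43, 6.42 and 7.43 CPM in cerulein (log2 fold change 0.21 ± 0.31), and the groups overlapped in both genes. Alg9 was at 8.92, 13.7 and 9.49 CPM in saline and 16.3, 15.8 and 13.2 CPM in cerulein (log2 fold change 0.51 ± 0.22, not called). It was called higher with library size alone, at 1.09, without saline replicate 2, at 0.73, with limma-voom, at 0.54, and with no count filter, at 0.58. Of the exonic bases of Alg9, 12.9% are shared with a gene on the other strand. Of the sugar donor genes, Gmppb, which makes GDP-mannose, was at 17.4, 25.8 and 21.03 CPM in saline and 21.6, 29.1 and 27.6 CPM in cerulein. Pmm2, a phosphomannomutase, was at 21.5, 29.0 and 25.1 CPM in saline and 23.7, 25.1 and 23.4 CPM in cerulein. Neither was called, at log2 fold changes of 0.29 ± 0.19 and -0.06 ± 0.17, and both were higher with library size alone, at 0.88 and 0.53. Rnf123 on the other strand shares 33.6% of the exonic bases of Gmppb.

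Promoters of the members were searched for the elements of the unfolded protein response, the ER stress pathway that is known to act on genes of this kind. The search took 250 bases before to 50 after the start of each gene on both strands in RefSeq windows (GRCm38.p6), and 38 of the 50 members had a window. The ER stress response element ERSE (CCAAT and CCACG with 9 bases between them) was found in 1 member, Alg12, against 0.137% of 27025 genes of all kinds. ERSE-II (ATTGG and CCACG with 1 base between them) and UPRE (TGACGTGG) were found in 0 members, against 0.0444% and 0.714% of genes. The part CCACG was in 21 of 38 members and 35.5% of genes, and CCAAT in 20 of 38 and 41.1%. ERSE contains both parts. CCACG was in 13 of 20 members called lower and 6 of 14 not called, and CCAAT in 13 of 20 and 5 of 14. A match describes letters and is not a site. The 250 bases before the start are shown, 5′ to 3′ as transcribed, for Alg12, with the ERSE in capitals, and for the catalytic subunits Stt3a, which fell, and Stt3b, which was not called, with CCAAT and CCACG on either strand in capitals. Each of the Stt3 windows holds 1 of each part, and in Stt3b the CCAAT is on the opposite strand. The windows are chr15:88819319-88819568, chr9:36767623-36767872 and chr9:115310469-115310718, all on the minus strand.
Alg12: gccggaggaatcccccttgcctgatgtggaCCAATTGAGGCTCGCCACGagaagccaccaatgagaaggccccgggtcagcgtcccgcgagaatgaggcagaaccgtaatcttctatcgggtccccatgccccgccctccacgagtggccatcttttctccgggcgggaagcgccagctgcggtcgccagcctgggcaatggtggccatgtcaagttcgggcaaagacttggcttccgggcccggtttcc
Stt3a: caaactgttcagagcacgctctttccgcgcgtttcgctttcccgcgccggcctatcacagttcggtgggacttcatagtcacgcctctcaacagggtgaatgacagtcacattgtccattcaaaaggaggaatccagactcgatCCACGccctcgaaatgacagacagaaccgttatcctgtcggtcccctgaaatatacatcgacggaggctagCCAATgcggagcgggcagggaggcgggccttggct
Stt3b: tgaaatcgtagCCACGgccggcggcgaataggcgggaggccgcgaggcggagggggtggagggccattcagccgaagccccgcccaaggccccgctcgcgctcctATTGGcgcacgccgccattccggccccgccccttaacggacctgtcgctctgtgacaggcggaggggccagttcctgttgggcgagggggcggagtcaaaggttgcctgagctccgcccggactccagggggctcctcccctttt

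Once attached, the glycan is trimmed by glucosidase I, encoded by Mogs, and by glucosidase II, a pair of the catalytic subunit Ganab and the regulatory subunit Prkcsh. Mogs was at 47.3, 68.5 and 76.2 CPM in saline and 46.5, 52.3 and 67.6 CPM in cerulein, with overlapping groups (log2 fold change -0.20 ± 0.20, not called, and -0.42 and called without saline replicate 1). With TMM scaling the glucosidase II subunits went in opposite directions, while with library size alone Prkcsh was higher and Ganab was at 0.00. Prkcsh, at chromosome 9, 22002806 to 22014222, was at 17.3, 22.9 and 20.8 CPM in saline and 43.7, 43.1 and 34.4 CPM in cerulein, 1.999-fold higher (log2 fold change 1.0 ± 0.18, edgeR, adjusted p = 3.37e-04). Every cerulein library lay above every saline library. Ganab was at 92.3, 73.2 and 97.7 CPM in saline and 63.5, 54.7 and 59.6 CPM in cerulein and fell by 0.57 ± 0.16 on the log2 scale (edgeR, adjusted p = 0.00742). The ratio of Prkcsh to Ganab counts was 0.187, 0.313 and 0.213 in saline and 0.688, 0.787 and 0.577 in cerulein, a pair chosen after the values were seen.

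Uggt1 senses misfolded glycoproteins and returns them to the lectin chaperones. It was at 72.3, 90.1 and 75.1 CPM in saline and 33.1, 34.2 and 36.5 CPM in cerulein, 2.29-fold lower (log2 fold change -1.19 ± 0.15, edgeR, adjusted p = 1.86e-05). Mgat1, at chromosome 11, 49244191 to 49263030, is the Golgi enzyme that opens the route to complex glycans. It was at 54.0, 76.4 and 75.4 CPM in saline and 111, 133 and 135 CPM in cerulein, 1.85-fold higher (log2 fold change 0.89 ± 0.17, edgeR, adjusted p = 7.44e-04), without overlap. Prkcsh and Mgat1 were called higher in each of the 15 alternatives tried.

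Other genes of the same pathways, from lists that hold no members, were called in both directions, and their counts are to be read against the 27.1% of all genes called lower and 28.7% called higher, or 11.7% and 41.7% with library size alone. Of 20 further glycan assembly and donor genes, 10 fell and 2 rose, with 2 and 6 under library size alone. Alg6, which adds the first glucose, was at 12.0, 9.21 and 10.3 CPM in saline and 2.01, 1.75 and 1.76 CPM in cerulein and fell by 2.51 ± 0.28 on the log2 scale, and the mannose phosphate isomerase Mpi fell by 1.44 ± 0.19 (edgeR, adjusted p = 7.91e-06 and 3.51e-05). Pmm1, a paralogue of Pmm2, was at 5.13, 5.62 and 4.10 CPM in saline and 16.5, 27.2 and 26.4 CPM in cerulein and rose by 2.22 ± 0.25. Dpm2, a subunit of the mannose donor enzyme, rose by 0.68 ± 0.22, while Dpm3, another subunit, fell by 0.77 ± 0.27. Of the 20 genes, 1 rose without saline replicate 1 or cerulein replicate 2, and 6 fell without cerulein replicate 2. Of 10 further transferase and translocon genes tested, 6 fell and 1 rose, or 1 and 2 with library size alone. Hspa13, an ER-associated chaperone-like ATPase, fell by 1.23 ± 0.18 and Ccdc47, a translocon partner, by 0.99 ± 0.15, while the translocon partner Ncln rose by 0.88 ± 0.19.

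The genes of the ER membrane complex and of tail-anchor insertion, a separate entry route, were called lower for 3 and higher for 3 of 16 tested (18.8% each, below the shares of all genes), and 5 were lower without saline replicate 1 and 6 with upper-quartile factors. With library size alone 2 were lower and 5 higher. Of the ER membrane complex, Emc7 and Emc9 fell by 1.28 ± 0.18 and 1.47 ± 0.31 on the log2 scale and Emc3 rose by 0.78 ± 0.19. Of the tail-anchor route, Ubl4a and Caml rose by 1.09 ± 0.15 and 0.80 ± 0.17. Of 20 genes of later glycan processing and lectins, 10 fell and 3 rose, or 7 and 5 with library size alone. Edem2, which marks misfolded glycoproteins for disposal, was at 259, 385 and 384 CPM in saline and 64.5, 76.7 and 66.0 CPM in cerulein, a fall of 2.31 ± 0.20 (edgeR, adjusted p = 7.62e-07). The core fucosyltransferase Fut8 fell by 1.86 ± 0.17, and the mannosidase Man1b1 and the branching enzyme Mgat4b rose by 1.10 ± 0.17 and 0.71 ± 0.19.

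Regulators and sentinels of the unfolded protein response were called lower for 6 (40%) and higher for 3 (20%) of 15 tested, or 2 and 5 with library size alone. Hspa5, encoding the ER chaperone BiP, rose by 1.49 ± 0.24 on the log2 scale and the sensor gene Ern1 by 0.84 ± 0.21. The ER-bound transcription factor genes Creb3l1 and Creb3l2 fell by 2.75 ± 0.19 and 1.13 ± 0.15 (edgeR, adjusted p = 1.15e-07 and 3.53e-05). Creb3l1 was at 47.8, 53.9 and 60.3 CPM in saline and 8.03, 6.54 and 9.44 CPM in cerulein, without overlap between the groups. The further genes called lower were Sdf2l1, Atf6, Herpud1 and Mbtps2, which fell by 2.41, 0.86, 0.55 and 0.53 on the log2 scale. Dnajb9 rose by 0.64. Xbp1, Hsp90b1, Ddit3, Atf6b, Eif2ak3 and Mbtps1 were not called.

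Per kilobase of the principal transcript, levels in saline ran from 1.83 CPM per kb for Srp54a to 141 for Sec11c among tested members. Within the Sec61 channel, a complex of these subunits in equal number, Sec61a1 stood at 89.7, Sec61b at 22.3 and Sec61g at 2.27 CPM per kb in saline. Short transcripts, among them those of Sec61b, Sec61g, Ssr4 and Sec11c, make a level per length uncertain. The level of Srp54a is uncertain too, since Srp54b and Srp54c are near-identical to it. After cerulein the highest member was Srpr, at 93.3 CPM per kb, followed by Sec61a1 at 88.6 and Ssr4 at 81.6, whereas Sec11c had moved to 18.1. The group means of Srpr and Sec61a1 in cerulein differ by less than their SDs.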

How the data were processed

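RNA from pancreas tissue in RNAlater was extracted with TRIzol and made into TruSeq Stranded mRNA libraries, per the labels' protocols. The authors deposited a table of raw gene counts, 1 column per library. Trimmomatic, STAR, HTSeq and the mm10 build are named, without versions, per the submitters' processing notes; strand settings, features and annotation release were not stated there.

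The deposited counts were used unchanged, with edgeR 4.0.16 in R 4.3.3. filterByExpr (minimum count 10, minimum total 15) left 12441 of 36333 rows. Library sizes were scaled with TMM. The robust quasi-likelihood F test was two-sided over all 6 libraries, with Benjamini-Hochberg adjustment over all genes tested and a call at 0.05. Standard errors were derived from the F statistic. Ratios between partner genes used log2 of counts plus 0.5, with exact permutation tests. Positions, transcript lengths and overlaps came from GENCODE M21, and near-identical transcripts from BLASTN. Level per kb used the shortest best-supported principal transcript. The symbol Camlg was matched to its row as Caml.

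The members and lists were chosen with earlier results of these data known. Values in all 6 libraries are given for up to 3 called members with the largest change in each role, for the partner pairs and for members not called. Rpn2, Spcs1, Emc3, Ptf1a, Dpm3 and the further genes of the unfolded protein response list were added after their values were seen. Other lists name the 2 genes with the smallest p in each direction. Alternatives were other scalings, filters and tools (DESeq2 1.42.0, limma 3.58.1), leaving out each library, and a replicate block.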

Additional observations from a re-analysis of the deposited data

How the results depend on the processing

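Library size alone changed the results most. It gave 12 members lower and 9 higher in place of 28 and 2, and a median log2 fold change of -0.047, against -0.84 with upper-quartile factors. It turned the sign of 16 members from negative to positive. Of these, 10 were called under neither scaling and reached 0.072 to 0.413. The other 6, called under either scaling, were Sec61a1, which went to 0.59, Rpn1 to 0.55, Pmm2 to 0.53, Dpagt1 to 0.12, Ssr3 to 0.069 and Ganab to 0.00042. These changes follow from the scaling, the only step that differs. Leaving out each library gave 23 to 34 members lower, 2 to 3 higher and medians from -0.76 to -0.53. Of 30 called members, 14 kept the call in all 15 alternatives, 11 lost it only with library size alone, and 5 (Ssr3, Spcs1, Dpagt1, Alg14 and Alg2) lost it in another as well. The log2 ratios and the ratio to enzyme counts kept their direction in every alternative run, the latter between 1.56 and 1.90 when a library was left out. The labels number replicates 1 to 3 in each group, without saying that numbers pair samples. Deviations from group means correlated at 0.19, 0.22 and -0.15 for same-numbered samples, so the numbers were not taken as pairs. The replicate block gave 29 members lower and 2 higher (27.3% and 29.5% of all genes), and a median of -0.63, and called Ssr4 lower at -0.46. Depth limits the test of Sec61g.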
